A study of Mus musculus with 6 samples.

Results

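The mitochondrially encoded transcripts are the RNAs copied from the small circular genome inside the mitochondrion. Their rows were taken from a table of deposited read counts by 1 rule, a gene symbol that starts with mt-. The rule found 37 of 49492 rows, made up of 13 mRNAs, 2 ribosomal RNAs (rRNAs) and 22 transfer RNAs (tRNAs). All 37 were matched by symbol to chromosome M in GENCODE M21 on the mouse build GRCm38, each of them as a gene without introns. Total RNA came from splenic CD8 T cells isolated as naive cells and stimulated for 24 hours with plate-bound anti-CD3 and soluble anti-CD28, each at 1 µg/ml. All mice were 6 to 8 weeks old, on a C57/BL6 background and carried OT-I, a transgenic T cell receptor for an ovalbumin peptide. The label WT stands for Wild Type-OT-I mice (3 libraries) and the label KO for NIK-CD4Cre-OT-I mice (3 libraries), where expression of Cre under Cd4 control is aimed at T cells. Map3k14 encodes NIK, a kinase of noncanonical NF-kB signalling, and which part of it was deleted is not stated in those sources. The labels do not say whether each library of a group came from a separate mouse, and a p-value here weighs a difference against the spread of the deposited libraries alone.

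The mitochondrial genome is transcribed from both strands as long precursors that run through many genes. In most places a tRNA lies between neighbouring genes, and cutting out the tRNAs releases the mRNAs and rRNAs. The mRNAs code for core subunits of respiratory complexes I, III, IV and V, whose other subunits come from nuclear genes, and the rRNAs and tRNAs serve the organelle's own ribosomes. Activated T cells enlarge and remodel their mitochondria, which makes these transcripts a readout of interest after stimulation. Stretches of mitochondrial DNA have also been copied into the nuclear chromosomes, where annotations list them as pseudogenes.

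The libraries held 41311346 to 47851445 counts each. Map3k14 counts were 2406, 2992 and 3025 in WT replicates 1 to 3 and 2425, 2837 and 2271 in KO replicates 4 to 6. Its log2 fold, always given here as KO over WT, was -0.12 (SE 0.11, edgeR quasi-likelihood test, adjusted p = 0.81), so these counts do not separate the genotypes and every direction given is between libraries as they are labelled. In CPM, that is counts scaled to a common library size, 7 CD8 T cell markers summed to 1906 to 2084 in WT and 1926 to 2078 in KO, and all 7 had counts in every library. Against this, summed B cell markers reached 27.0 to 87.2 CPM, myeloid markers 24.2 to 53.4, dendritic cell markers 9.33 to 14.1, CD4 T cell markers 11.2 to 27.3, platelet markers 2.34 to 3.88 and erythroid markers 0.0909 to 0.345. The NK cell list summed to 254 to 377 CPM, and it holds Nkg7 and Eomes, which activated CD8 T cells also express. In none of these lists did the ranges of the genotypes separate. Xist, made from the inactive X chromosome of females, had 82938 counts or more in WT replicates 1 and 3 and in KO replicate 6 and 38 or fewer in the other libraries, so each genotype held libraries of both sexes and thus more than 1 mouse.

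A stretch of the mitochondrial genome with a near-identical nuclear copy bears on how these counts can be read, and its edges are shown here for that reason. Of the annotated nuclear transcripts, 7 pseudogenes on the minus strand of chromosome 1 matched mitochondrial genes at 99.71% identity or more, where a copy was counted from 99% identity over at least 100 bases. They lie in the order of chromosome M, between bases 24611535 and 24616197 of chromosome 1 (GRCm38), and match chromosome M from base 6390 to base 11042, a span of 4653 bases. The distances between neighbouring pseudogenes equal those between the matching stretches of chromosome M at 5 of 6 junctions. At the sixth, between the copies of mt-Nd3 and mt-Nd4l, the distance is 74 bases on chromosome 1 and 73 on chromosome M. This span is called the copied span below. Capitals in the next 4 sequences mark bases inside the alignment of a mitochondrial gene with its nuclear pseudogene. The left edge lies inside mt-Co1 (chrM:6350-6429, plus strand, coding exon), beside the start of Gm29216 (chr1:24616149-24616197, minus strand).
mt-Co1 edge: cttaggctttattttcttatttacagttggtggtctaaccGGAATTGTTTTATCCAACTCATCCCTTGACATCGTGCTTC
Gm29216: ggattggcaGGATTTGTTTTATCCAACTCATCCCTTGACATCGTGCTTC
The right edge lies inside mt-Nd4 (chrM:11003-11082, plus strand, coding exon), beside the end of Gm28439 (chr1:24611535-24611574, minus strand).
mt-Nd4 edge: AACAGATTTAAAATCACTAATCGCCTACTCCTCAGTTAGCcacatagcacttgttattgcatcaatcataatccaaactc
Gm28439: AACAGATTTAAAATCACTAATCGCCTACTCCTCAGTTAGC
Gm29216 and mt-Co1 share 483 bases with 1 mismatch, and Gm28439 and mt-Nd4 share 876 bases with 0. The copy of mt-Nd3 shows how little sets the sequences apart, since over its 345 aligned bases it differs only by T3C (mt-Nd3's base, the position from 1 at the gene's 5′ end, the base of Gm28438). The start of mt-Nd3 (chrM:9459-9491, plus strand) and of Gm28438 (chr1:24613087-24613119, minus strand) follow, with the base that differs in capitals.
mt-Nd3 difference: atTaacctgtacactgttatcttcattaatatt
Gm28438 difference: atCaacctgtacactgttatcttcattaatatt
The other 4 pseudogenes, Gm28661 (mt-Co2), Gm10925 (mt-Atp6), Gm28437 (mt-Co3) and Gm10222 (mt-Nd4l), were identical to their genes over 681, 678, 783 and 294 bases. Within identical stretches the sequence of a read cannot say from which copy it came. The sources used here do not give the aligner, the read length or how reads with several matches were treated.

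Among the mRNAs, counts were low in the genes that lie wholly inside the copied span. Per kilobase of gene, which allows genes to be compared, the 5 mRNAs outside the copied span averaged 356 to 2158 CPM over the 6 libraries, the 2 that cross its edges 526 and 2942 CPM, and the 6 that lie wholly inside 0.436 to 2.29 CPM. The lowest mRNA of the other groups, mt-Nd6, was 155-fold above the highest inside, mt-Co3. In counts, the mRNAs outside held 7265 to 102090 per library and those inside 2 to 104. Complex I had genes outside the copied span, across its edge and inside it, and complex IV had genes across its edge and inside it. The complex IV genes mt-Co1, which crosses an edge, and mt-Co2, which lies inside, differed 3151-fold in summed counts. Both are core subunits of cytochrome c oxidase. The complex I genes mt-Nd4, which crosses the other edge, and mt-Nd4l, which lies inside, overlap each other and differed 5599-fold. The copied span covers 30.4% of the members' summed length, which includes parts of mt-Co1 and mt-Nd4. The members wholly inside it, without those 2 genes, took 151 to 275 counts per library, or 0.0266% to 0.0461% of the mitochondrial counts.

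**Figure D1:**
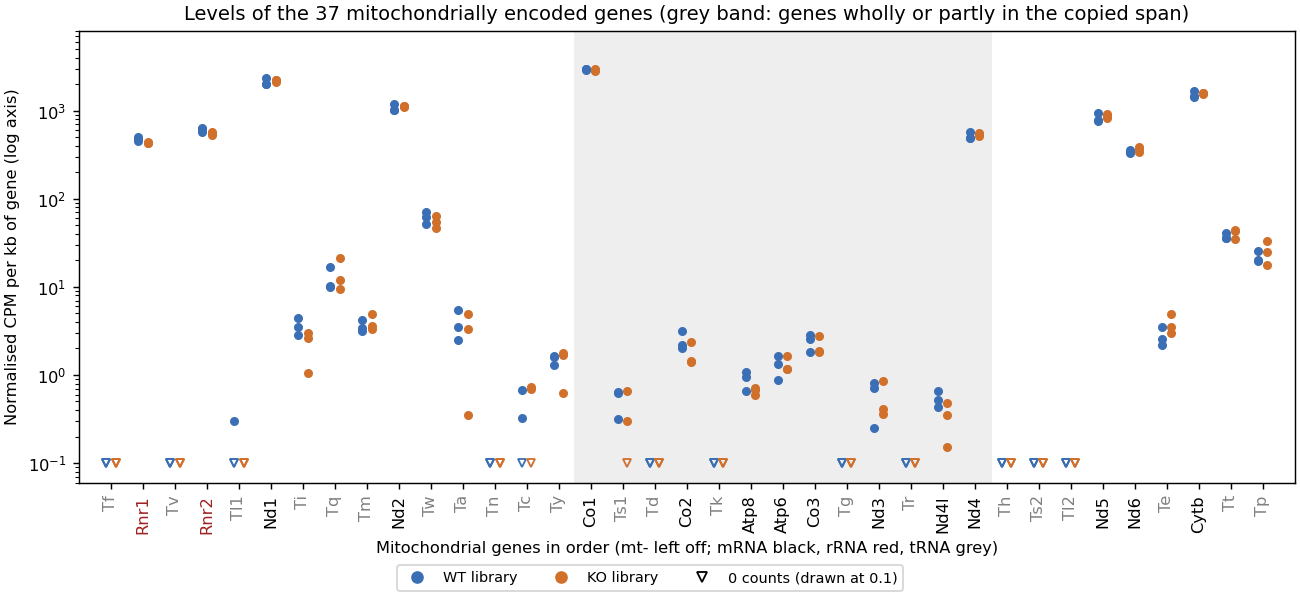
Level of each of the 37 genes in order along chromosome M (horizontal axis), in TMM-normalised CPM per kilobase of gene on a log axis, with 1 point per library (blue WT, orange KO, triangles 0 counts). The grey band holds the genes wholly inside the copied span and mt-Co1 and mt-Nd4, which are partly inside, and its 6 other mRNAs lie at 3.12 CPM per kilobase or lower in every library.

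The pseudogene rows themselves were low. The 7 copies held 0 to 62 counts per library, and they were not high where the members were low. Sums of a member wholly inside and of its copy were from nearly equal, for mt-Atp6, to 4.42-fold apart, for mt-Nd3. Summed over the 6 libraries, mt-Atp6 had 241 counts and Gm10925 had 234, mt-Co2 had 390 and Gm28661 255, and mt-Nd4l had 35 and Gm10222 25. For mt-Co3 the sums were 489 and 199 (Gm28437), and for mt-Nd3 53 and 12 (Gm28438). At the edges the picture differed, with 1228714 counts for mt-Co1 against 308 for Gm29216 and 195958 for mt-Nd4 against 182 for Gm28439. Per kilobase of its aligned bases Gm29216 averaged 2.35 CPM, a level near those of the genes inside the span. The values of mt-Co2, mt-Co3, mt-Atp6, mt-Atp8, mt-Nd3 and mt-Nd4l are therefore uncertain as levels of those mRNAs, and the part that the nuclear copies play in them was not tested. mt-Atp8 has no annotated pseudogene of its own. Its last 43 bases, shared with mt-Atp6, lie in the copy of mt-Atp6, and its other bases lie between the copies of mt-Co2 and mt-Atp6.

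A further 9 pseudogene rows resembled mitochondrial genes at 90% to 99% identity and held 0 to 470 counts. The highest was Gm13340 on chromosome 2, which matches all 1545 bases of mt-Co1 at 97.605% identity and held 338 to 470 counts. Next by summed counts among all 16 pseudogenes were Gm29216 (308), Gm13341, a match of mt-Co2 on chromosome 2 at 95.906% (260), Gm28661 (255) and Gm10925 (234). Genes outside the copied span that have such a more distant relative, mt-Nd2, mt-Nd5, mt-Nd6 and mt-Cytb, were among the abundant members. Of the pseudogenes, 5 of the 7 copies and 4 of the 9 others passed the filter on low counts. Between the genotypes edgeR called 0 of these, beside 0.00659% of all genes tested (smallest adjusted p = 0.69).

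**Figure D2:**
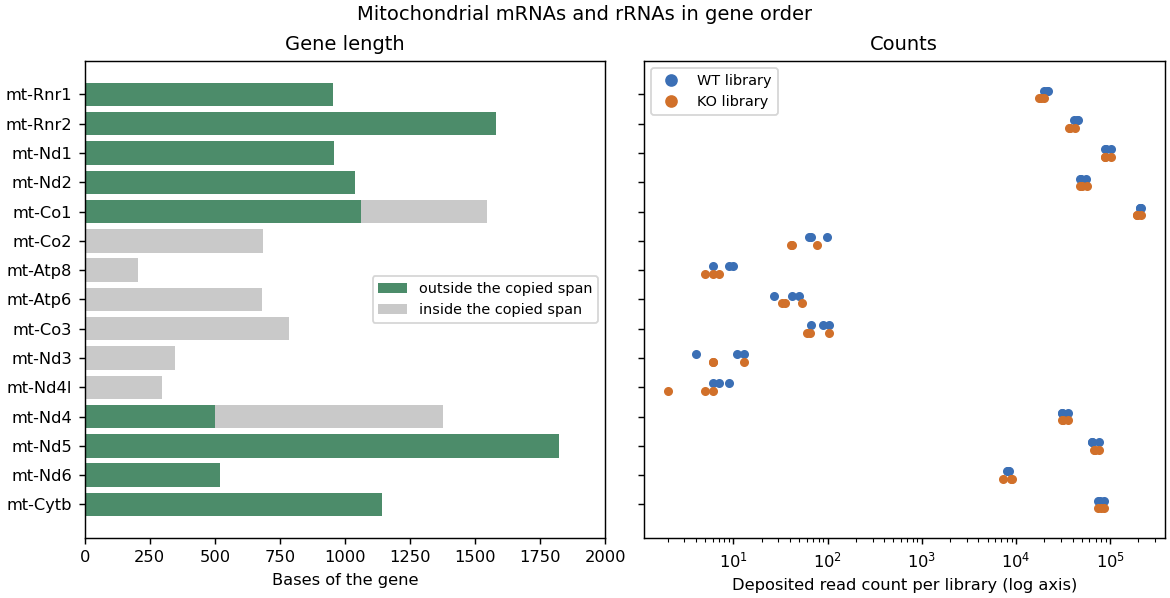
Length of each mRNA and rRNA in bases (left, green outside and grey inside the copied span) and its deposited counts in each library (right, log axis, blue WT and orange KO), in gene order from top to bottom. The 6 genes drawn wholly in grey lie at 104 counts or fewer, and mt-Co1 and mt-Nd4, drawn in both colours, lie at 30690 counts or more.

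Among the 9 abundant members the order of levels per kilobase over the 6 libraries was mt-Co1 (2942 ± 70.6 CPM, SD over the libraries, n = 6), mt-Nd1 (2158 ± 134), mt-Cytb (1550 ± 85.5), mt-Nd2 (1099 ± 67.8), mt-Nd5 (850 ± 71.7), mt-Rnr2 (582 ± 41.3), mt-Nd4 (526 ± 36.3), mt-Rnr1 (458 ± 27.5) and mt-Nd6 (356 ± 22.4). The ranges of mt-Rnr2 and mt-Nd4, and of mt-Nd4 and mt-Rnr1, overlapped, and all other neighbours in this order were apart in every library. Dividing by the bases outside the copied span alone, with no account of reads that cross the edge, gave 4280 CPM per kilobase for mt-Co1 and 1445 for mt-Nd4, which moves mt-Nd4 from below mt-Nd5 to above mt-Nd2. Among the 6 mRNAs inside, the order was mt-Co3 (2.29), mt-Co2 (2.09), mt-Atp6 (1.30), mt-Atp8 (0.776), mt-Nd3 (0.564) and mt-Nd4l (0.436 CPM per kilobase), and the ranges of all neighbours overlapped. Among the 9 abundant members the genes followed no order by complex. Complex I members stood at the second place (mt-Nd1) and at the last (mt-Nd6), with mt-Cytb of complex III between them.

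The comparison of the genotypes asks whether stimulated CD8 T cells labelled as lacking NIK hold other amounts of these RNAs. No member was called. Of the 37 members, 20 passed the low-count filter and were tested in a fit over 15186 genes, and at an adjusted p under 0.05 edgeR's quasi-likelihood test called 0 of them, against 0.00659% of all tested genes. DESeq2 called 0 members against 0.598% of all genes, and limma-voom called 0 members against 1 of 15186 genes. With so few genes called, 0 calls among 20 members say little about the members. At an unadjusted p under 0.05, edgeR had 2 of 20 members lower in the KO-labelled libraries and 0 higher. Of all 15186 genes, 523 were lower and 580 higher, together 7.26%. The groups did not overlap for 2 of 20 members, beside 12.8% of all genes, and these were the same pair, the rRNAs. Negative log2 folds were found for 8 of 20 members and 47.6% of all genes, and the median log2 fold was 0.05 over the members and 0.01 over all genes tested. In such bulk libraries, a change in the number of cells of a type and a change in RNA per cell cannot be told apart.

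**Figure D3:**
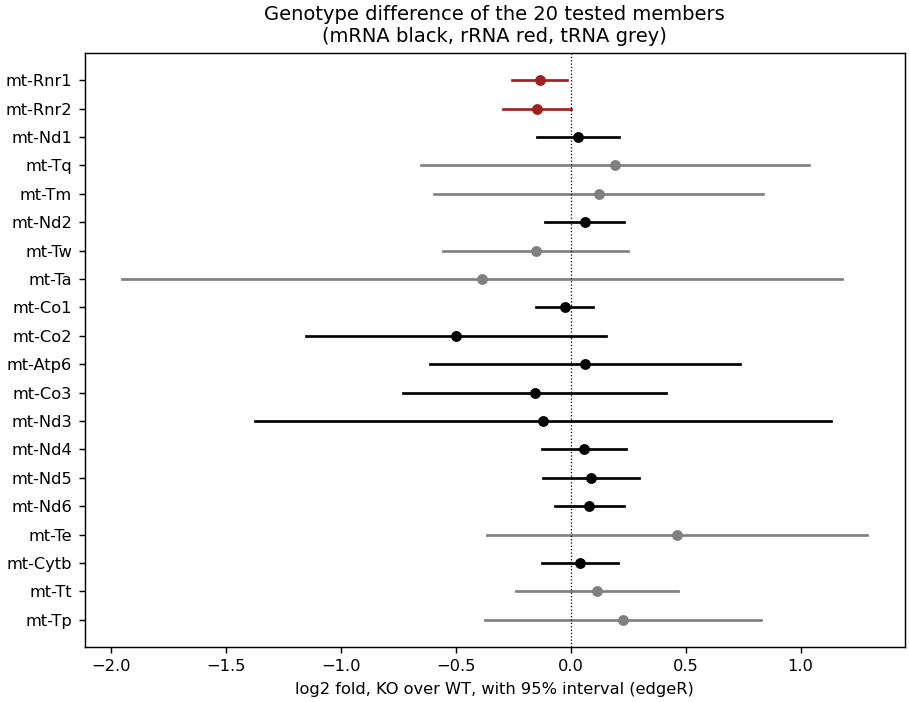
Log2 fold of KO over WT for the 20 tested members in gene order, each point with the 95% interval of the edgeR fit (mRNA black, rRNA red, tRNA grey). The intervals of the abundant mRNAs are short and span 0, those of the genes with few counts are several times wider, and the rRNAs lie at -0.13 and -0.15.

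The rRNAs, the RNA parts of the small (mt-Rnr1, chrM:70-1024) and large (mt-Rnr2, chrM:1094-2675) mitochondrial ribosomal subunits, are the first long genes of the plus strand. Levels of mt-Rnr1 were 437, 478 and 460 CPM in WT replicates 1 to 3 and 411, 415 and 426 in KO replicates 4 to 6. Every KO library thus lay below every WT library, with group means of 458 ± 20.3 and 417 ± 7.52 CPM (SD, n = 3 each). The log2 fold was -0.13 (SE 0.05), a fold between 0.838 and 0.990 at 95%, and the difference did not pass the threshold over all genes (edgeR, unadjusted p = 0.032, adjusted p = 0.67; DESeq2 adjusted p = 0.38). Levels of mt-Rnr2 were 1016, 914 and 970 CPM in WT and 883, 831 and 906 in KO. Here too the groups did not overlap, though WT replicate 2 and KO replicate 6 were close, and the means were 967 ± 51.2 and 873 ± 38.5 CPM (SD, n = 3 each). The log2 fold was -0.15 (SE 0.06, edgeR adjusted p = 0.69; DESeq2 adjusted p = 0.51). The sources used here describe mRNA profiles without saying how RNA was selected, a step on which mitochondrial rRNA counts depend.

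Complex I, the NADH dehydrogenase that feeds electrons into the respiratory chain, takes 7 of the 13 mRNAs. Its member with the most counts was mt-Nd1 (chrM:2751-3707), at 2260, 1920 and 1951 CPM in WT and 2133, 2014 and 2113 in KO. mt-Nd2 (chrM:3914-4951) stood at 1235, 1060 and 1057 CPM in WT and 1182, 1151 and 1163 in KO. In both genes WT replicate 1 was the highest of the 6 libraries and WT replicates 2 and 3 the lowest, so the KO range lay inside the WT range. The same layout held for mt-Nd4 (chrM:10167-11544), with 789, 672 and 671 CPM in WT and 746, 706 and 767 in KO. It held again for mt-Nd5 (chrM:11742-13565), with 1706, 1417 and 1389 CPM in WT and 1588, 1530 and 1675 in KO. The log2 folds of these genes were 0.03 (SE 0.08), 0.06 (SE 0.07), 0.06 (SE 0.08) and 0.09 (SE 0.09), and edgeR's adjusted p-values ran from 0.82 to 0.93. For mt-Nd5, the 95% interval of the fold was 0.919 to 1.23. The WT spread was the larger for each, as for mt-Nd5 with group means of 1504 ± 175 and 1598 ± 73.2 CPM (SD, n = 3 each).

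mt-Nd6 (chrM:13552-14070) is the only mRNA annotated on the minus strand. It had 188, 174 and 176 CPM in WT and 192, 203 and 175 in KO. KO replicate 5 was the highest and WT replicate 2 the lowest, and the groups overlapped (log2 fold 0.08, SE 0.06, edgeR adjusted p = 0.78). Its last 14 bases also belong to mt-Nd5 on the other strand, and the sources used here do not give the strand setting of the counting. Reads of the plus strand precursor over the same bases therefore cannot be told apart from mt-Nd6 reads. The ratio of mt-Nd6 to mt-Nd5 counts was 0.104 to 0.132 over the 6 libraries, with no separation of the groups. The remaining complex I genes, mt-Nd3 (chrM:9459-9806) and mt-Nd4l (chrM:9877-10173), lie in the copied span. Counts of mt-Nd3 were 11, 4 and 13 in WT and 6, 13 and 6 in KO, and those of mt-Nd4l were 7, 9 and 6 in WT and 5, 2 and 6 in KO. Such counts leave a wide interval, and for mt-Nd3, the only one tested, the fold could lie anywhere from 0.386 to 2.19 (log2 fold -0.12, SE 0.53, edgeR adjusted p = 0.96). The last bases of mt-Nd4l (chrM:10147-10173, plus strand) show its overlap with mt-Nd4, in capitals.
mt-Nd4l end: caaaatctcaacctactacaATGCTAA

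Complex III has 1 mitochondrial gene, mt-Cytb (chrM:14145-15288), the cytochrome b that passes electrons from ubiquinol towards cytochrome c. It stood at 1916, 1642 and 1690 CPM in WT and 1821, 1803 and 1771 in KO. As in the complex I genes, WT replicate 1 was highest and WT replicates 2 and 3 lowest (means 1749 ± 147 and 1798 ± 25.4 CPM, SD, n = 3 each). The log2 fold was 0.04 (SE 0.07, edgeR adjusted p = 0.90), with a log2 interval from -0.12 to 0.20 at 95%.

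Complex IV, cytochrome c oxidase, passes electrons to oxygen and has 3 mitochondrial subunits. mt-Co1 (chrM:5328-6872), its catalytic subunit, had the most counts of all members, at 4643, 4623 and 4492 CPM in WT and 4440, 4416 and 4660 in KO. It did not share the high value in WT replicate 1, its group means were 4586 ± 82.1 and 4505 ± 135 CPM (SD, n = 3 each), and its log2 fold was -0.03 (SE 0.05, edgeR adjusted p = 0.92) with a fold interval of 0.901 to 1.07. The other subunits lie in the copied span. mt-Co2 (chrM:7013-7696) had 67, 64 and 99 counts in WT and 77, 42 and 41 in KO, and mt-Co3 (chrM:8607-9390) had 90, 66 and 104 in WT and 104, 65 and 60 in KO. The lowest counts of both were in KO replicates 5 and 6, and the groups overlapped, also in CPM, where WT replicate 2 lay below KO replicate 5 for mt-Co3. The log2 folds were -0.50 (SE 0.28) and -0.16 (SE 0.24), with edgeR adjusted p-values of 0.71 and 0.89. For mt-Co2 the fold interval of 0.451 to 1.11 is wide on both sides of the estimate and includes 1.

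Complex V, the ATP synthase, has 2 mitochondrial subunits of its membrane part, and both genes lie in the copied span. mt-Atp6 (chrM:7927-8607) had 50, 27 and 42 counts in WT and 54, 35 and 33 in KO (log2 fold 0.06, SE 0.29, edgeR adjusted p = 0.97). mt-Atp8 (chrM:7766-7969) had 6, 10 and 9 counts in WT and 7, 6 and 5 in KO and was not tested. The end of mt-Atp8 (chrM:7907-7969, plus strand) is printed because its last 43 bases, in capitals, are also the start of mt-Atp6 in another reading frame, and reads over them belong to both genes.
mt-Atp8 end: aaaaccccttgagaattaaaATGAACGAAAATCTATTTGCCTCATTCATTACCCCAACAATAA
In all, complex V members took 0.00703% to 0.0105% of the mitochondrial mRNA counts. Complex I members took 45.5% to 48.5%, complex IV members 36.5% to 40.2%, nearly all of it mt-Co1, and mt-Cytb 14.3% to 15.2%, with overlap of the genotypes for each complex. Genes wholly inside the copied span, whose counts are uncertain as levels, belong to complexes I, IV and V and not to complex III. These shares are therefore uncertain as a division of the mRNAs among the complexes.

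**Figure D4:**
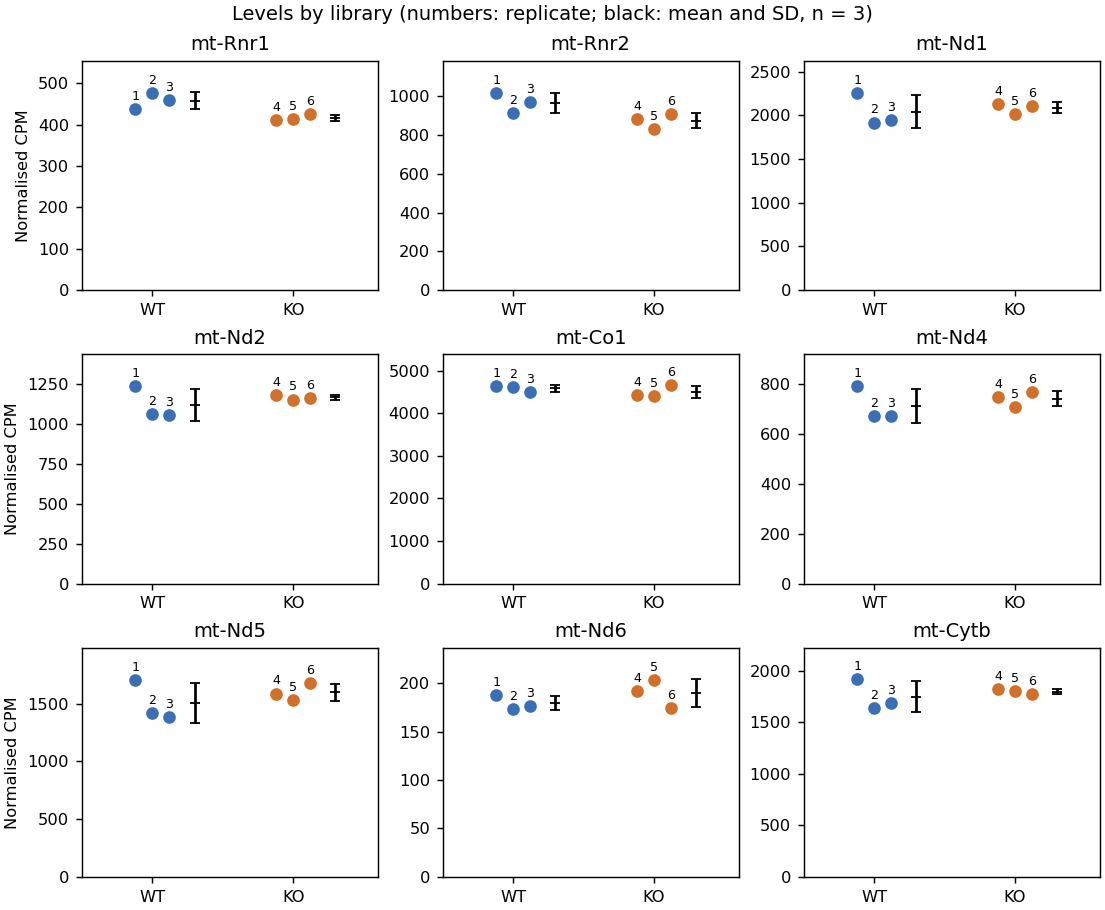
TMM-normalised CPM of the 9 abundant members in each library (points, numbered by replicate, blue WT and orange KO), with the group mean and SD (black, n = 3) and vertical axes from 0. WT replicate 1 is the highest library for mt-Nd1, mt-Nd2, mt-Nd4, mt-Nd5 and mt-Cytb, and for mt-Rnr1 and mt-Rnr2 each KO point lies below each WT point.

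The 22 tRNAs, which carry amino acids to the mitochondrial ribosome and are 59 to 75 bases long, held 371 to 503 counts per library in sum. Of these, 10 had 0 counts in all 6 libraries (mt-Tf, mt-Tv, mt-Tn, mt-Td, mt-Tk, mt-Tg, mt-Tr, mt-Th, mt-Ts2 and mt-Tl2). There, 0 counts allow up to 0.0627 to 0.0722 CPM of counted reads (3 counts, counting error only). Only 9 had a count in every library, and 7 were tested. Of the 5 tRNAs inside the copied span, 4 were at 0 throughout and the serine tRNA mt-Ts1 had 0 to 2 counts, and for these 5, as for the mRNAs there, the counts are uncertain as levels. Outside it, 6 of 17 were at 0 throughout, so counts of 0 were also found there. By strand, 9 of 14 plus strand tRNAs and 1 of 8 minus strand tRNAs were at 0 throughout. Beside the most abundant tRNAs, mt-Tw, mt-Tt and mt-Tp, an aspartate tRNA at 0 counts, mt-Td, is printed (all as transcribed, with no capitals, at chrM:4950-5016, chrM:15289-15355 and chrM:6942-7011 on the plus strand and chrM:15356-15422 on the minus strand for mt-Tp).
mt-Tw: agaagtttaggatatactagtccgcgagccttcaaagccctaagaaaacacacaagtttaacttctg
mt-Tt: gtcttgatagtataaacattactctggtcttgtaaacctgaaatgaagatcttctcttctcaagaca
mt-Tp: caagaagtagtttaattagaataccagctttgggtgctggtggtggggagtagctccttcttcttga
mt-Td: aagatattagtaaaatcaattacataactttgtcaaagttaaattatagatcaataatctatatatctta
The tryptophan tRNA mt-Tw, which follows mt-Nd2 and shares 2 bases with it, averaged 58.6 CPM per kilobase against 1099 for mt-Nd2. mt-Tt (threonine) and mt-Tp (proline), which meet end to end on opposite strands after mt-Cytb, averaged 39.1 and 23.5. All other tRNAs were at 13.2 CPM per kilobase or less. The sources used here do not give the read length or how reads that cross the ends of a gene were counted. Values per kilobase of genes this short are therefore not comparable with those of mRNAs as RNA levels. For the same reason, counts of 0 do not show that a tRNA was absent.

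No tRNA separated the genotypes. Counts of mt-Tw were 213, 160 and 193 in WT and 207, 139 and 153 in KO (log2 fold -0.15, SE 0.17), and those of mt-Tt were 122, 111 and 112 in WT and 138, 129 and 98 in KO (log2 fold 0.11, SE 0.15). Counts of mt-Tp were 76, 60 and 63 in WT and 79, 99 and 50 in KO (log2 fold 0.23, SE 0.26). The KO-labelled libraries held both the highest and the lowest value of mt-Tp. The glutamine tRNA mt-Tq had 33, 54 and 33 counts in WT and 32, 66 and 35 in KO (log2 fold 0.19, SE 0.36), with WT replicate 2 and KO replicate 5 high. The methionine tRNA mt-Tm had 13, 10 and 11 counts in WT and 12, 10 and 14 in KO (log2 fold 0.12, SE 0.31). The alanine tRNA mt-Ta had 17, 11 and 8 in WT and 11, 15 and 1 in KO (log2 fold -0.39, SE 0.67), and its low value was that of KO replicate 6. The glutamate tRNA mt-Te had 8, 11 and 7 counts in WT and 10, 15 and 10 in KO (log2 fold 0.46, SE 0.35). EdgeR's adjusted p-values for the 7 tRNAs ran from 0.77 to 0.94. The isoleucine and tyrosine tRNAs mt-Ti and mt-Ty had 2 to 14 counts, and mt-Tc and mt-Tl1 had 0 to 2.

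Summed over all members, the mitochondrial share of counts was 1.42%, 1.28% and 1.28% in WT and 1.34%, 1.32% and 1.38% in KO, where counting error was at most 0.00355 percentage points either way (95%, Wilson). WT replicate 1 had the highest share and the other WT libraries the lowest, and the group means differed by 0.0186 percentage points with a pooled SD of 0.0593. Within the mitochondrial counts the classes were divided in another way. The rRNA share was 10.2%, 10.8% and 11.1% in WT and 9.65%, 9.52% and 9.75% in KO, with counting error of at most 0.0797 points. All KO libraries lay below all WT libraries, the nearest being WT replicate 1 and KO replicate 6. This share restates the counts of mt-Rnr1 and mt-Rnr2, whose groups did not overlap, as was found for 12.8% of all genes tested. Most other shares and ratios of the mitochondrial counts overlapped. The counting error leaves out the spread between libraries. The mRNA share, which is nearly all of the rest, was 88.8% to 89.7% in WT and 90.2% to 90.4% in KO. Both shares depend on mRNAs of the copied span, whose counts are uncertain as levels. tRNAs made up 0.0653% to 0.0851%, and genes on the minus strand 1.30% to 1.58%, with overlap. No test was made of such sums over members.

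The share of mt-Rnr2 alone was 7.15%, 7.08% and 7.54% in WT and 6.58%, 6.35% and 6.63% in KO, without overlap. That of mt-Rnr1 overlapped, at 3.08%, 3.70% and 3.57% in WT and 3.07%, 3.17% and 3.11% in KO. Set against mt-Co1, mt-Rnr1 gave count ratios of 0.0941, 0.103 and 0.102 in WT and 0.0926, 0.0940 and 0.0913 in KO, so that WT replicate 1 lay next to the KO libraries. For mt-Nd5 to mt-Co1 the ratios were 0.367, 0.307 and 0.309 in WT and 0.358, 0.346 and 0.360 in KO, and WT replicate 1 stood apart from the other WT libraries again. The ratio of the large to the small rRNA was 1.91 to 2.32 and did not separate the groups. Within the WT group, replicate 1 held more mt-Nd1, mt-Nd2, mt-Nd4, mt-Nd5 and mt-Cytb and less mt-Rnr1 relative to mt-Co1 than replicates 2 and 3. For mt-Rnr2 to mt-Co1 the ratios were 0.219, 0.198 and 0.216 in WT and 0.199, 0.188 and 0.194 in KO, where WT replicate 1 was the highest library and the groups overlapped. In WT replicate 1 the summed B cell markers, at 27.0 CPM, were the lowest of the libraries, with KO replicates 4 and 5 next at 32.7 and 34.5. Its CD8 T cell markers, at 2084 CPM, were the highest, but close to 2078 and 2076 in those KO libraries. The part of these markers in the values of WT replicate 1 was not tested.

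**Figure D5:**
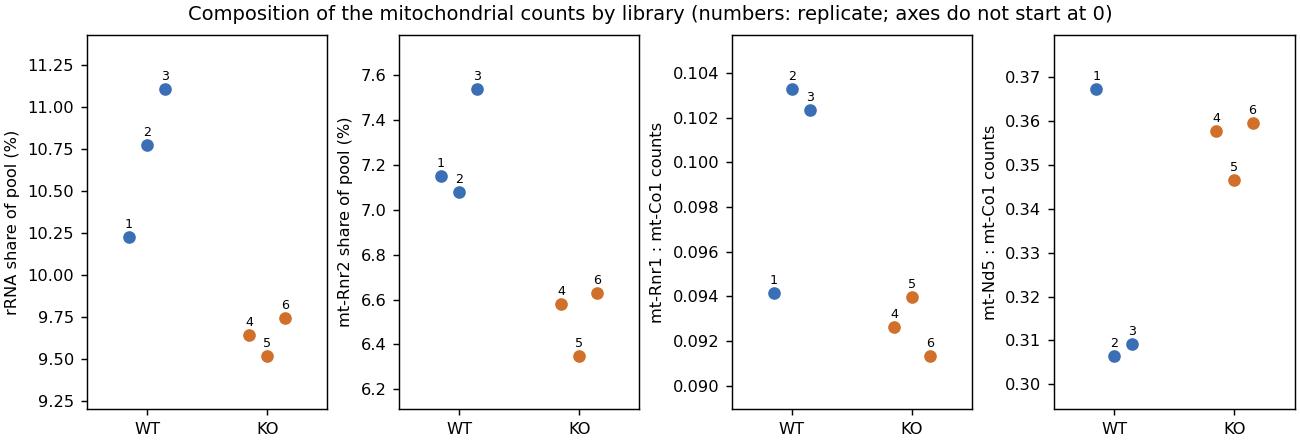
Measures of the make-up of the mitochondrial counts in each library (points numbered by replicate, blue WT and orange KO, axes that do not start at 0): the rRNA share and the mt-Rnr2 share in percent, and the count ratios of mt-Rnr1 and mt-Nd5 to mt-Co1. The rRNA share is 10.2% or more in WT and 9.75% or less in KO, and in both ratio panels WT replicate 1 lies among or next to the KO points. Most shares and ratios that are not drawn overlapped between the groups.

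The nuclear genes that serve the mitochondrial genome were looked at in 8 lists, of which 144 entries were tested. EdgeR called 0 of them, beside 0.00659% of all genes, and DESeq2 also called 0, beside 0.598% of all genes. At an unadjusted p under 0.05 in edgeR, 6 of 144 were lower in KO and 0 higher. Of all 15186 genes tested, 523 were lower and 580 higher, together 7.26%. Log2 folds were negative for 90 of 144, beside 47.6% of all genes, with a median of -0.03 against 0.01. Negative folds were most frequent among nuclear-encoded partners in the respiratory complexes (25 of 31, median -0.03) and markers of mitochondrial mass (10 of 13, median -0.06). The leading partner was Uqcrq, a subunit of complex III, at 138, 141 and 137 CPM in WT and 126, 120 and 125 in KO (log2 fold -0.17, SE 0.04, edgeR adjusted p = 0.60, DESeq2 adjusted p = 0.088). Its groups did not overlap, nor did those of Atp5d, a subunit of the ATP synthase (214 ± 7.97 and 197 ± 9.26 CPM, SD, n = 3 each). Both were picked for the smallest p in their list, which favours groups that do not overlap. Among all genes tested, the groups did not overlap for 12.8%. Among mass markers, Tomm20, an import receptor of the outer membrane, had 158 ± 6.46 CPM in WT and 141 ± 5.99 in KO (log2 fold -0.16, edgeR adjusted p = 0.62), and the channel gene Vdac3 had a log2 fold of -0.09.

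The remaining lists hold genes that make, handle or translate the mitochondrial RNAs or regulate mitochondrial biogenesis. Of 20 genes of mitochondrial DNA transcription and replication 12 had negative folds, led by Twnk, the replicative helicase (log2 fold -0.10), and Mterf3, a regulator of mitochondrial transcription (-0.11). Of 20 RNA processing and stability genes 12 were negative, led by Fastk (-0.10) and the exonuclease Rexo2 (-0.10). Of 17 tRNA and rRNA modification genes 9 were negative, and the leading ones were Mrm1, a methyltransferase for the large rRNA (-0.21, SE 0.11), and Alkbh1, which modifies tRNA (-0.08). None of these lists had a gene at an unadjusted p under 0.05. Of 23 enzymes that load tRNAs or act on loaded tRNAs 10 were negative. Here Gars, glycyl-tRNA synthetase of cytosol and mitochondria, had means of 653 CPM in WT and 548 in KO (log2 fold -0.25, SE 0.07, edgeR adjusted p = 0.60). Translation factors were negative in 6 of 12, with the ribosome recycling factor Mrrf at -0.13 and the release factor Mtrf1l at 0.10. Of 8 regulators of mitochondrial biogenesis 6 were negative. They were led by Myc, a transcription factor that drives growth after T cell activation, at 898 ± 30.3 CPM in WT and 771 ± 53.6 in KO (SD, n = 3 each; log2 fold -0.22, SE 0.07, edgeR adjusted p = 0.60). Pprc1, a coactivator of genes for mitochondria, followed at -0.15 (SE 0.05, edgeR adjusted p = 0.63). Neither gene's groups overlapped, but both genes were picked for the smallest p in their list, which favours this.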

How the data were processed

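RNA was taken from stimulated CD8 T cells of 3 WT-labelled and 3 KO-labelled samples, grouped by the genotype in their titles. A gene by library table of raw counts was deposited by the authors. HTSeq 0.9.1, DESeq2 and the mm10 build are named without a role, per the submitters' processing notes. For the aligner, annotation, strand setting and treatment of reads with several matches, the sources used here give nothing, and 0 columns were left unused. Positions, lengths and sequences came from GENCODE M21 on GRCm38, which is mm10, by gene symbol.

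Counts of all genes were fitted in R 4.3.3 by edgeR 4.0.16's quasi-likelihood test (filterByExpr, TMM, robust fit), with Benjamini-Hochberg adjustment over all tested genes and calls at an adjusted p under 0.05. SEs follow from each log2 fold and its F value, and CPM use TMM factors. The code was tested on simulated counts. The planned search of a genome for nuclear copies was replaced by a search of annotated transcripts with blastn 2.17.0, and the limit of 99% identity was chosen after the matches were seen.

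The members and gene lists were chosen with earlier results of these data known. All 37 members are named, with Map3k14, the 2 genes of smallest p in each nuclear list and the 5 pseudogenes with most counts. Of the genes this takes in, 1 is not reported here. The other pseudogenes were named after their values were seen. Alternatives were RLE and upper-quartile factors, mitochondrial genes left out of scaling, scaling to the mitochondrial counts, DESeq2 1.42.0, limma-voom (limma 3.58.1), 2 other low-count filters and each library left out. A term for libraries with high Xist, and the use of all settings on the nuclear lists, were added after seeing the data. The replicate numbers of the genotypes are not shared, so they pair no libraries.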

Additional observations from a re-analysis of the deposited data

How the results depend on the processing

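Under every setting run, 0 mitochondrial members and 0 genes of the nuclear lists were called. Among all genes, edgeR called 1 of 15186 with all 6 libraries and 10 of 26275 when no low-count filter was used. The fit that dropped WT replicate 1 called 119 of 15584 genes, and dropping WT replicate 2 instead gave 2 of 15494. DESeq2 called 89 of 14883, so the background moves with the tool and with WT replicate 1. Each other setting called 1 gene, of 12014 to 15560 tested. With so few genes called in any setting, 0 calls say little about the members or the nuclear lists. No setting that changes scaling, tool or filter turned the direction of a member's log2 fold, and the filter of at least 1 CPM gave values for 14 of the 20. The term for high Xist turned mt-Nd3 to 0.0812. Leaving out 1 library gave log2 folds from -0.17 to -0.10 for mt-Rnr1 and from -0.19 to -0.11 for mt-Rnr2, with adjusted p-values over all settings from 0.22 to 0.99 and 0.48 to 0.99. It turned the direction of 8 others, which ranged from -0.15 to 0.28 for mt-Atp6, -0.0037 to 0.11 for mt-Cytb, -0.0129 to 0.11 for mt-Nd1, -0.60 to 0.18 for mt-Nd3, -0.98 to 0.11 for mt-Ta, -0.0529 to 0.24 for mt-Tm, -0.0244 to 0.42 for mt-Tp and -0.22 to 0.47 for mt-Tq. The cause was not tested. Of those that kept their direction, mt-Co2 ranged from -0.79 to -0.28, mt-Co3 from -0.38 to -0.0192, mt-Nd2 from 0.0223 to 0.14, mt-Nd4 from 0.0185 to 0.14 and mt-Nd5 from 0.0332 to 0.19. The values farthest from 0 came without KO replicate 4 for mt-Co2 and mt-Co3 and without WT replicate 1 for the other 3, with adjusted p-values of 0.43 for mt-Co2 and 0.22 for mt-Nd5 there. The difference in mitochondrial share ranged from -0.0045 to 0.0641 percentage points when 1 library was left out, was 0.0138 without the 50 most abundant nuclear genes in the total and 0.0308 without the rRNAs. The genes in the copied span and the tRNAs have few counts and wide intervals. No paired analysis was possible because the genotypes share no replicate numbers.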
